A study of Drosophila melanogaster with 9 samples.

Results

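The ring glands of feeding Drosophila melanogaster larvae were described from their own RNA alone, without a contrast to the starved larvae of the same study. The members are the 3 libraries labelled as feeding, of 9 libraries in all, and the questions are which genes and functions these glands expressed most and how far the 3 libraries matched each other. Larvae were of the w1118 strain, a white-eyed laboratory stock with no other allele or transgene named. Each library was made from total RNA of a large pool of hand-dissected glands, and the pools of a treatment are called biological replicates in the series' design text. The study's title concerns mitochondria of an endocrine organ and a nutrient restriction checkpoint, and the other 6 libraries, from larvae starved before or after that checkpoint, were not used here. A time of 108 hours stands in the headers of these columns, counted from a point that the sources do not name, and the labels give no age of the larvae. All values below are FPKM (fragments per kilobase of gene, scaled to library size) as deposited, unless counts are named. They serve to compare levels between genes of different length. The length implied by counts and FPKM was not fixed for every gene. Of 7541 genes with at least 100 counts in each library, 152 had an implied length more than 1.5-fold apart between libraries. With 1 group, no test between groups applies, and each value is set beside the spread of the 3 libraries.

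The ring gland is the main endocrine organ of the fly larva. Its largest section, the prothoracic gland, turns dietary sterol into ecdysone, the steroid that triggers moulting. Juvenile hormone comes from the corpora allata, and adipokinetic hormone, which mobilises stored fuel, from the corpora cardiaca. It sits on the aorta above the brain, so a dissected gland can carry vessel muscle, tracheal branches, blood cells and pieces of neighbouring organs. In a pool of whole glands, fewer cells of a type and less RNA per cell cannot be told apart.

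The feeding libraries held 32999056, 34455483 and 31377442 counts in replicates 1, 2 and 3. Of 14409 genes in the table, 8216 (57.0%) had a mean of at least 1 FPKM and are called expressed here, 4929 reached 10 FPKM, 762 reached 100 FPKM and 119 reached 1000 FPKM. The median of the expressed genes was 13.8 FPKM, and 2325 genes had no count in any feeding library. Each count of expressed list members below is to be read beside the 57.0% of all genes. The table holds 13580 protein-coding genes and 25 genes annotated as non-coding, so it says little on non-coding RNA.

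Replicate 3 stood apart from the other two libraries. Replicates 1 and 2 differed by more than 2-fold in 294 (3.58%) of the expressed genes, against 1271 (15.5%) for replicates 1 and 3 and 1308 (15.9%) for replicates 2 and 3. To see whether the close replicates 1 and 2 could be 1 library deposited more than once, their counts were compared by chi-square, and 44.7% of 8378 genes with a summed count of at least 100 passed the 95% limit of counting error, where counting error alone would give 5%. The comparison takes no account of how counts were estimated, and it cannot tell separate libraries of 1 pool from separate pools. Replicates 1 and 2 were counted as separate samples, as labelled. Values are given for each library. Without replicate 3, 8052 genes had a mean of at least 1 FPKM, the top 100 genes held 52.4% of the summed FPKM in place of 50.4%, ribosomal proteins 40.6% in place of 38.2% and the ecdysone enzymes 1.79% in place of 2.19%.

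The most abundant transcripts came from mitochondrial DNA, ribosomal protein genes and the ecdysone pathway. Subunit I of cytochrome c oxidase, mt:CoI, led all genes with 10146, 9895 and 9938 FPKM in replicates 1, 2 and 3, a mean of 9993 ± 134 (SD, n = 3). RpL41, a small protein of the large ribosomal subunit, followed with 6226, 6760 and 7741 FPKM, and mt:CoII, the second mitochondrial subunit of the same oxidase, with 7118, 6958 and 6501 FPKM. Of the 30 genes of highest mean FPKM, 22 were cytoplasmic ribosomal proteins by symbol, and of the top 100, 75 were. The remaining places in the top 30 went to 3 mitochondrial genes, to the elongation factor Ef1alpha48D, which brings aminoacyl-tRNA to the ribosome, to sta, a protein of the small ribosomal subunit whose symbol lies outside the ribosomal name pattern, to the uncharacterised CG14075, and to the ecdysone enzymes sad and phm. Without replicate 3, 29 of these 30 genes kept a place in the top 30.

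**Figure D1:**
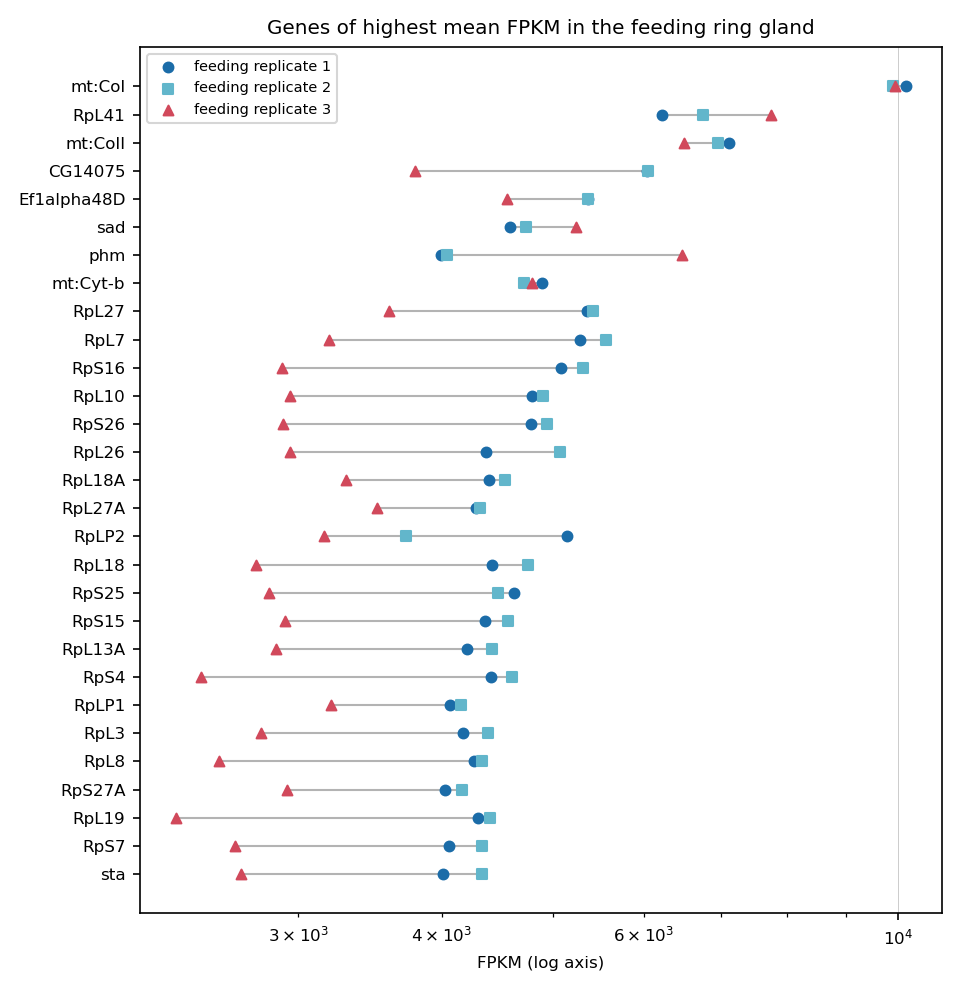
FPKM on a log axis of the 30 genes of highest mean FPKM, less 1 gene not reported here, 1 row per gene and 1 point per feeding library, with a grey line from the lowest to the highest library. Replicates 1 and 2 lie close together in nearly all rows, replicate 3 lies lowest in most ribosomal protein genes, and phm lies at 4000, 4045 and 6482 FPKM.

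Expression was concentrated in few genes. The top 10 genes of each library took 9.30%, 9.71% and 10.0% of its summed FPKM, and the top 100 took 52.2%, 52.9% and 46.6%. In replicates 1 and 2, 91 and 89 genes together held 50% of the summed FPKM, and in replicate 3 it took 118. By the functional classes deposited with the table, 378 genes of translation and ribosome biogenesis took 44.7%, 44.0% and 36.6% of the summed FPKM and filled 80 places of the top 100. Energy production took 9.71%, 10.4% and 9.10%, protein folding and turnover 7.11%, 6.97% and 8.12%, and secondary metabolism, the class that holds the steroid hydroxylases, 2.56%, 2.52% and 3.77%.

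Among the hand-made gene lists, ribosomal proteins of the cytoplasm came first. With 84 of 92 genes expressed and a median of 2980 FPKM among the expressed, they took 40.9%, 40.3% and 33.4% of the summed FPKM. Genes of the mitochondrial genome took 4.30%, 5.11% and 4.84%. In replicate 2, mt:CoIII made up 7633 of the 35005 FPKM summed for these genes. It had 4.63 and 7.74 FPKM in replicates 1 and 3. Translation factors took 3.48%, 3.46% and 3.10%. The 8 ecdysone synthesis enzymes came next with 1.81%, 1.77% and 3.0%, above the cytoskeleton, the mitochondrial ATP synthase and the proteasome. Most of the ecdysone share came from sad, phm and spok. The 14 ATP synthase genes took 1.18%, 1.19% and 0.879%. The 48 proteasome genes, of which 34 were expressed, took 0.890%, 0.863% and 1.02%.

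**Figure D2:**
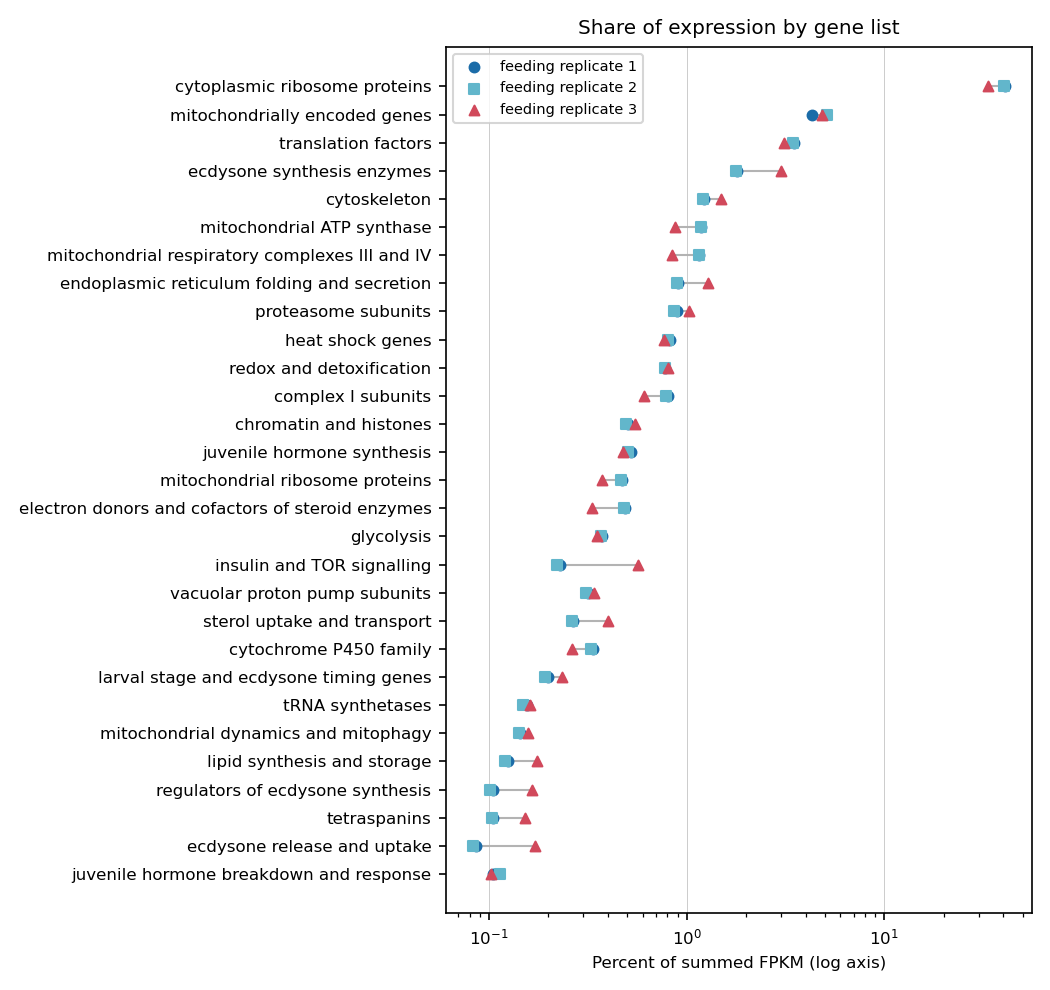
Percent of the summed FPKM of each feeding library, on a log axis, taken by each gene list of function or gland biology with a mean share of at least 0.1%, 1 point per library. Ribosomal proteins lead at 33.4% to 40.9%, and the ecdysone synthesis enzymes lie at 1.77% to 3.0%, highest in replicate 3.

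All 8 genes of the ecdysone synthesis list were expressed, and 7 had a mean above 100 FPKM, against 762 of 14409 genes in the whole table. Among the 7, dib passed that level through replicate 3 alone, with a mean of 87.2 FPKM without it. The pathway begins with nvd, the Rieske oxygenase that converts cholesterol, at 404, 408 and 829 FPKM. The middle steps need sro, a short-chain dehydrogenase, at 1073, 1075 and 575 FPKM, and the cytochrome P450 spok at 1461, 1448 and 3377 FPKM. These genes already show that the libraries do not move together within the pathway, since replicate 3 was highest for nvd and spok and lowest for sro. The later hydroxylations are made by the P450 enzymes phm, dib and sad. phm (now named phtm, on the X chromosome at 18685766 to 18688433) had 4000, 4045 and 6482 FPKM, a mean of 4842 ± 1420 (SD, n = 3). sad, on chromosome arm 3R at 11877235 to 11879754, had 4589, 4739 and 5238 FPKM, a mean of 4855 ± 340. The means lay close, but sad was above phm in replicates 1 and 2 and below it in replicate 3. By mean FPKM both genes ranked among the top 10 of the whole gland. That rank rests on replicate 3: sad ranked 15, 16 and 5 and phm 32, 35 and 4 in the 3 libraries, and without replicate 3 their means were 4664 and 4022 FPKM. The third hydroxylase, dib, was far lower at 86.4, 87.9 and 179 FPKM, so that enzymes of the same branch differed by more than the spread of the libraries. GstE14 (noppera-bo), a glutathione transferase needed for sterol use in the gland, had 357, 360 and 204 FPKM. Cyp6t3, a P450 reported to act in the same pathway, was barely expressed, with 1.63, 2.49 and 1.87 FPKM.

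**Figure D3:**
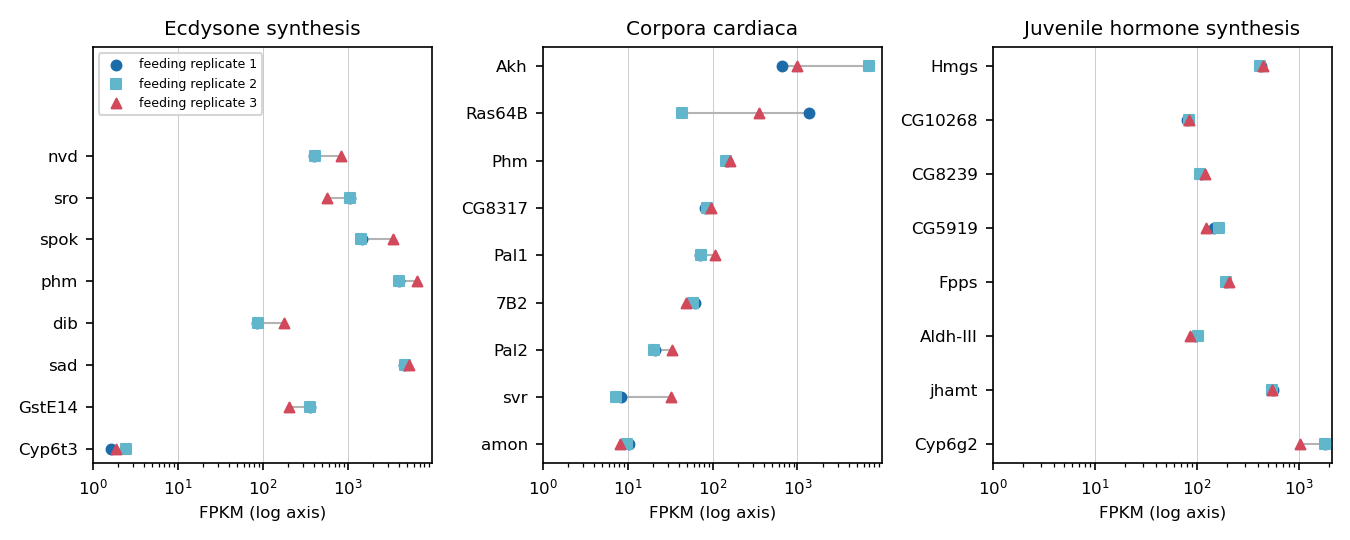
FPKM on log axes of the ecdysone synthesis enzymes (left), of corpora cardiaca genes with the neighbour of Akh, Ras64B (middle), and of 8 juvenile hormone synthesis genes (right), 1 point per feeding library. Replicate 3 is highest for nvd, spok, phm, dib and sad, the libraries lie close for jhamt, Hmgs and Fpps, and Akh and Ras64B spread widely in opposite order.

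A few of the genes that bring sterol to the enzymes were also abundant. Start1, a lipid transfer protein of the StAR family, had 1205, 1188 and 1189 FPKM, a mean of 1194 ± 9.74 (SD, n = 3) and among the smallest spreads of any gene above 100 FPKM. Npc1a, which moves sterol out of endosomes, had 201, 257 and 644 FPKM, while its soluble partner Npc2a had 58.2, 61.2 and 55.0 FPKM. Of 22 genes of sterol uptake and transport, 16 were expressed, 10 reached 10 FPKM and 3 reached 100 FPKM. The median over all 22 was 8.53 FPKM. Npc1b, the relative known from the gut, stood at 0.414, 0.350 and 0.275 FPKM. The lipoprotein receptor LpR1 was low, at 10.1, 7.28 and 7.91 FPKM, and LpR2 had 0.385, 0.114 and 6.52 FPKM, with nearly all of it in replicate 3.

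Electron carriers of the P450 enzymes differed widely in level. Cyt-b5, a haem protein that passes electrons to microsomal enzymes, had 2767, 2809 and 1604 FPKM. CG1319 (Fdx2), a mitochondrial ferredoxin, had 371, 374 and 148 FPKM. Its relative Fdxh (Fdx1) had 12.5, 16.6 and 9.94 FPKM, and dare, the ferredoxin reductase, had 11.7, 13.9 and 11 FPKM. The reductase Cpr of the microsomal P450 enzymes lay between them at 76.4, 75.9 and 96.7 FPKM.

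Of the genes of ecdysone release and uptake, 1 was abundant. Oatp74D, the ecdysone importer, had 473, 480 and 803 FPKM, and Atet, the transporter that loads ecdysone into vesicles, had 71.8, 66.8 and 131 FPKM. Both were highest in replicate 3. Of the 11 genes of release and uptake, 10 were expressed but only these 2 reached 10 FPKM, and the synaptotagmins on the list lay between 0.323 and 3.08 FPKM. The ecdysone-inactivating P450 Cyp18a1 had 16.1, 16.2 and 12.3 FPKM.

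Regulators of ecdysone synthesis had a mean of at least 1 FPKM in 15 of 15 cases, 2 of them through replicate 3 alone, and their median was 22.6 FPKM against 13.8 FPKM over all expressed genes. The highest was CG11762, now named ouib, a zinc finger factor that acts on the spok gene, with 408, 410 and 355 FPKM. It was followed by the POU factor vvl with 90, 88.7 and 177 FPKM. Both are known activators of enzyme genes in the prothoracic gland. The zinc finger factor br, an ecdysone response gene, had 27.2, 26.4 and 124 FPKM, and kni, a nuclear receptor relative, had 13.6, 12.7 and 38.5 FPKM. The ecdysone receptor EcR had 13.2, 13.2 and 32.3 FPKM, while its partner usp had 24.0, 25.7 and 24.4 FPKM. Replicate 3 was thus the high library for br, kni and EcR and lay between the others for usp. The timing receptors Hr4, at 0.268, 0.274 and 4.84 FPKM, and Hr46 (now Hr3), at 0.181, 0.150 and 3.59 FPKM, reached 1 FPKM in replicate 3 only.

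Juvenile hormone synthesis was a well-expressed and even group. All 9 genes found exceeded 10 FPKM and 6 exceeded 100 FPKM, with a median of 146 FPKM. The methyltransferase jhamt, which makes the final hormone and marks the corpora allata, had 562, 549 and 544 FPKM, a mean of 551 ± 9.27 (SD, n = 3). In the mevalonate branch, Hmgs had 427, 414 and 445 FPKM. Fpps, which makes farnesyl diphosphate, had 195, 193 and 209 FPKM. Most of these genes thus differed little among the 3 libraries, and the group's median coefficient of variation was 5.27%. The exception with the highest level was Cyp6g2, a P450 of the corpora allata, with 1798, 1812 and 1034 FPKM. Among the genes that break the hormone down, the epoxide hydrolases Jheh2 and Jheh1 had 368, 454 and 260 FPKM and 172, 172 and 115 FPKM. The esterase Jhe was at 0, 0.00402 and 0 FPKM. The hormone receptors gce, at 3.6, 3.93 and 3.13 FPKM, and Met, at 1.83, 1.72 and 3.79 FPKM, were low.

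The corpora cardiaca were marked by Akh, the adipokinetic hormone gene, but its level could not be fixed. Akh, on chromosome arm 3L at 4141467 to 4142070, had 655, 7006 and 989 FPKM from 43898, 154781 and 65333 counts. Its neighbour on the same arm, the small GTPase gene Ras64B at 4139076 to 4141398, had 1368, 43.8 and 354 FPKM from 101771, 3534 and 33097 counts. The library that was high for Akh was therefore the low one for Ras64B. Summed over Ras64B and the genes within 1 kb of it, Akh among them, counts were 148217, 160731 and 101578, and replicates 1 and 2 were then 1.04-fold apart in CPM, the count scaled to library size. The way reads were shared between these adjacent genes was not tested, and neither level is taken as that of its gene. Akh still enters the sums of corpora cardiaca markers below. Other corpora cardiaca genes varied less than Akh, though svr, a carboxypeptidase of peptide processing, had 8.41, 7.26 and 32.3 FPKM. CG8317, now Lst (limostatin), a peptide hormone of these cells, had 81.2, 85.7 and 94.9 FPKM. The peptide-amidating enzymes Phm and Pal1 had 148, 144 and 162 FPKM and 71.6, 73.3 and 108 FPKM. The prohormone convertase amon and its helper 7B2 had 10.3, 9.76 and 8.21 FPKM and 62.4, 59.5 and 48.9 FPKM. The fate regulators gl, at 2.97, 3.17 and 2.29 FPKM, and dimm, at 1.84, 2.25 and 1.15 FPKM, were near the limit for an expressed gene.

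Receptors through which other tissues act on the gland were mostly below 10 FPKM. Of 39 genes found, 26 were expressed, 9 reached 10 FPKM and none reached 100 FPKM. Over all 14409 genes, 8216 (57.0%) were expressed, 4929 reached 10 FPKM and 762 reached 100 FPKM. The median of the expressed receptors was 6.53 FPKM, against 13.8 FPKM for all expressed genes. The torso receptor tor, which receives prothoracicotropic hormone from the brain, had 25.6, 26.4 and 49.2 FPKM. AstA-R2, an allatostatin A receptor, had 40.0, 41.3 and 30.2 FPKM. The activin and BMP receptors put, tkv and babo had means of 27.3, 26.1 and 19.1 FPKM. The insulin receptor InR was low, with 1.20, 1.05 and 5.25 FPKM. A search of the deposited Pfam domains, made after values had been seen, found further receptors of the rhodopsin family, of which 25 of 75 were expressed. That is 33.3%, against 57.0% of all genes. Proc-R, the receptor of the peptide proctolin, was the highest at 63.6, 74.5 and 46.1 FPKM. PK2-R1 and PK2-R2, receptors of pyrokinin peptides, had 62.9, 57.0 and 28.8 FPKM and 15.2, 15 and 7.40 FPKM, lowest in replicate 3 in both cases.

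Ligands made in or near the gland were led by egr, the fly tumour necrosis factor, at 158, 164 and 188 FPKM. The EGF ligand spi followed at 62.3, 61.8 and 79.4 FPKM and the PDGF- and VEGF-like factor Pvf2 at 47.5, 43.2 and 55.3 FPKM. Of 22 ligand genes, 12 were expressed, near the share of 57.0% over all genes. The brain hormone Ptth stood at 0.794, 0.964 and 0.733 FPKM, and Ilp8, the relaxin-like peptide of discs, was listed at 0 in all 3 libraries. In the Ras branch below tor, Ras85D was the most expressed of 16 genes, with 50.8, 47.2 and 53.8 FPKM. All 16 had a mean of at least 1 FPKM.

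Insulin and TOR signalling genes were expressed in 22 of 23 cases at a median of 13.5 FPKM, which is the level of the gland's expressed genes at large. Thor, the translation inhibitor 4E-BP, stood far above the rest with 1186, 1204 and 2783 FPKM. The GTPase Rheb, an activator of TOR, had 71.7, 75.7 and 72.0 FPKM. The forkhead factor foxo had 5.92, 6.64 and 13 FPKM. Of these 3 genes, Thor and foxo were highest in replicate 3 and Rheb did not differ there from the other libraries beyond their own distance.

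Transcription factors were surveyed by Pfam domain, with groups chosen after values had been seen. Of 17 bZIP proteins 15 were expressed, of 21 nuclear receptors 15, of 53 helix-loop-helix proteins 29 and of 102 homeobox proteins 26. Over all genes the share was 57.0%, and the share of helix-loop-helix proteins, 54.7%, lay near it. The highest was the bZIP factor crc, the fly ATF4, at 461, 464 and 270 FPKM, followed by Xbp1, a factor of the unfolded protein response, at 332, 330 and 189 FPKM. Hand, a helix-loop-helix factor known from heart and blood cells, had 232, 239 and 188 FPKM. In these factors replicate 3 was the low library. The homeobox factor after vvl was pdm3, another POU protein, at 58.4, 60.1 and 82.3 FPKM. Among nuclear receptors, Hr78 led with 37.2, 36.4 and 43.7 FPKM, followed by Eip75B with 25.7, 25.6 and 39.3 FPKM.

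Outside translation, the nuclear gene of highest mean FPKM over the 3 libraries was CG14075, a gene without a name on chromosome arm 3L at 18984961 to 18985634. It had 6045, 6054 and 3790 FPKM, a mean of 5296 ± 1304 (SD, n = 3). Its rank was 4 in replicate 1, 6 in replicate 2 and 9 in replicate 3, where phm and sad stood above it. With Akh left aside, since its level could not be fixed, cu and awd came after sad and phm. The gene cu (curled), the fly nocturnin, had 3492, 3565 and 3898 FPKM. The nucleoside diphosphate kinase awd had 3079, 3180 and 2341 FPKM. Other genes known by a CG number were CG44325 with 1658, 1722 and 2387 FPKM, CG4408 with 1259, 1290 and 2098 FPKM, CG2852 with 1130, 1105 and 992 FPKM and CG6770 with 1092, 1109 and 978 FPKM. These genes carry levels like those of the named steroid genes Start1 and sro. New genes of the authors' assembly, 582 in all, were expressed in 200 cases and took 0.319%, 0.307% and 1.03% of the summed FPKM.

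Nuclear genes of mitochondrial respiration were expressed throughout. All 13 expressed ATP synthase genes, of 14 found, exceeded 100 FPKM, led by CG1746 (ATPsynC) with 897, 1010 and 547 FPKM and CG4692 (ATPsynF) with 979, 1021 and 451 FPKM. The alpha and beta subunits, blw and ATPsyn-beta, had 603, 606 and 536 FPKM and 582, 578 and 536 FPKM. Replicate 3 was the lowest library for all 4 genes. In complexes III and IV 18 of 19 nuclear genes were expressed, with levy, a subunit of cytochrome c oxidase, at 1011, 1088 and 554 FPKM. Complex I had 33 of 40 genes expressed at a median of 126 FPKM, and the mitochondrial ribosome 71 of 72 at a median of 36.6 FPKM.

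Secretory and stress genes formed a further abundant block. All 24 genes of folding and secretion in the endoplasmic reticulum were expressed, with a median of 174 FPKM, led by the chaperone calreticulin (Crc) at 842, 866 and 1179 FPKM. The disulphide isomerases ERp60 and Pdi had 608, 612 and 941 FPKM and 449, 460 and 692 FPKM, and replicate 3 was highest for all 3 genes. The constitutive chaperone Hsc70-4 had 1696, 1689 and 1738 FPKM, and Hsp83, the fly HSP90, had 1166, 1214 and 977 FPKM. Heat-inducible Hsp68 had 187, 189 and 13.3 FPKM, and Hsp70Ab had 320, 314 and 28.0 FPKM. Both inducible genes were thus far lower in replicate 3 than Hsc70-4 or Hsp83 were, although reads of the near-identical Hsp70 copies cannot be assigned with certainty. The glutathione transferase GstD1 and the superoxide dismutase Sod had 1159, 1207 and 963 FPKM and 862, 899 and 683 FPKM.

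The label of the tissue was checked against markers of each gland part and of neighbouring tissues. All 11 prothoracic gland markers were expressed, and their summed level was 13811, 14043 and 19121 FPKM. All 5 corpora allata markers were expressed, at a sum of 2697, 2699 and 1901 FPKM, and 13 of 14 corpora cardiaca markers were, with the reservation on Akh above. Prothoracic gland markers had the highest sum of all marker lists in each library. In replicate 2 the corpora cardiaca markers came next with a sum of 7432 FPKM, of which Akh made up 7006 FPKM. Aorta, heart and muscle markers came next in replicates 1 and 3, with 17 of 23 expressed and a sum of 4142, 4294 and 4303 FPKM. Their main genes included the actin Act57B with 991, 1033 and 1219 FPKM and Mp20 with 767, 789 and 592 FPKM. The coefficients of variation of these genes were 11.2% and 15.1%, against a median of 4.16% for the expressed genes of the list. The myosin heavy chain Mhc was even, with 81.3, 81.1 and 77.5 FPKM. The heart factor tin had 13, 14 and 13.3 FPKM.

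Markers of further tissues were present, several of them at levels that set replicate 3 apart. Over all genes 57.0% were expressed, and the count of glia markers below lies near that share. Salivary gland markers split in replicate 3. The glue genes Sgs3, at 713, 733 and 69.7 FPKM, and Sgs5, at 452, 460 and 57.1 FPKM, were lowest there, while ng1, at 9.28, 8.90 and 68.8 FPKM, and ng3, at 15.2, 13.3 and 90.1 FPKM, were highest there. More than 1.5-fold beyond both other libraries, 6 of 13 expressed genes of the list were higher in replicate 3 (17.1% of all expressed genes were) and 7 lower (12.4%). The mean that chose these 13 includes replicate 3. Of the 12 chosen by replicates 1 and 2 alone, 5 were higher and 7 lower, against 15.2% and 13% of all genes so chosen. The summed level of the list was 2495, 2578 and 657 FPKM from 13 expressed of 15 genes, and its factor fkh was listed at 0 in all 3 libraries. Trachea and cuticle markers summed to 786, 916 and 2317 FPKM with 15 of 24 genes expressed, and Ccp84Aa, Ccp84Ac and Cpr49Ab were listed at 0. The tracheal factor trh itself had 23.7, 24.6 and 37.1 FPKM. Haemocyte and lymph gland markers summed to 969, 998 and 1621 FPKM with 18 of 21 expressed, and most of that was Ance with 617, 638 and 879 FPKM, while the haemocyte gene Hml had 31.2, 29.1 and 31.9 FPKM. Fat body markers summed to 331, 339 and 854 FPKM with 11 of 14 expressed, led by Lsp1beta at 85.8, 90.1 and 282 FPKM, with Yp1 listed at 0. The part of these tissues in the gland's other values was not tested. Gut markers summed to 92.7, 106 and 597 FPKM with 9 of 19 expressed, led by the protease Jon65Aiii at 24.9, 31.4 and 282 FPKM, with Jon99Ci listed at 0. Glia markers summed to 261, 254 and 345 FPKM with 8 of 14 expressed, while repo, the gene that defines glia, was at 0.322, 0.239 and 0.244 FPKM. Neuron and brain markers summed to only 33.3, 33.6 and 59.7 FPKM with 9 of 24 expressed, elav at 0.630, 1.59 and 3.91 FPKM, and no marker of germline or sex tissue, of 11, was expressed.

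**Figure D4:**
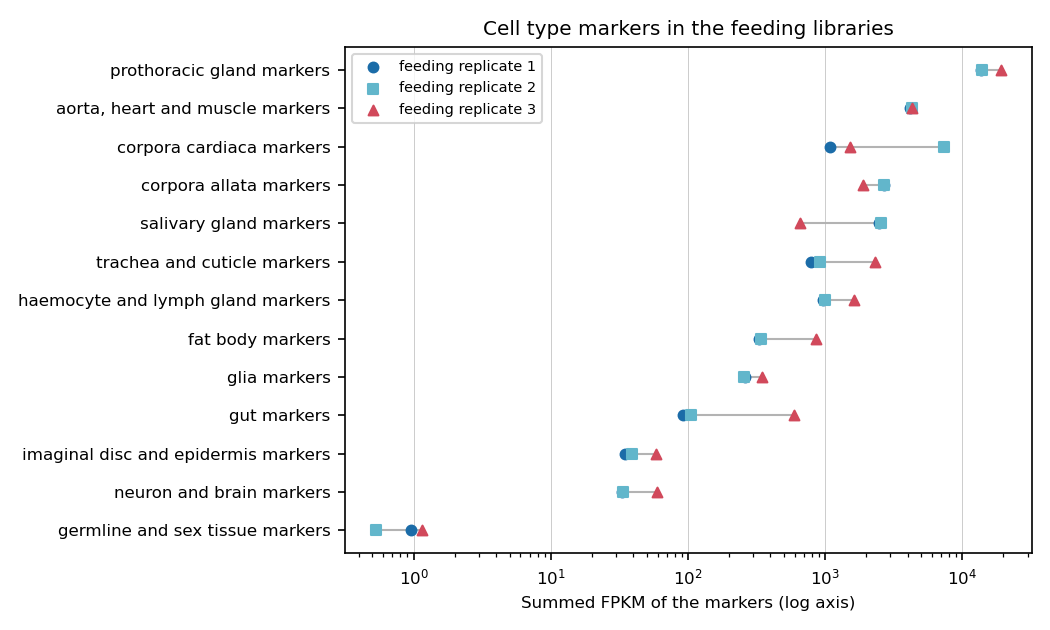
Summed FPKM of each list of cell type markers on a log axis, 1 point per feeding library. Prothoracic gland markers lead at 13811 to 19121 FPKM, and replicate 3 lies above the other libraries for trachea, haemocyte, fat body and gut markers. It lies below them in the sum of the salivary gland markers, which abundant glue genes carry, although 6 of the 13 expressed members are higher there.

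The agreement of the 3 libraries was high for replicates 1 and 2 and lower for replicate 3. Across the 8216 expressed genes, log2(FPKM + 1) had a Pearson correlation of 0.983 between replicates 1 and 2, 0.930 between 1 and 3 and 0.927 between 2 and 3, with Spearman correlations of 0.982, 0.919 and 0.915. These are descriptions across genes, which are not independent replicates. The median distance of a gene was 1.07-fold, 1.30-fold and 1.31-fold in the same pairs. The top 100 genes of replicates 1 and 2 shared 97 genes, and 91 were in the top 100 of all 3 libraries. On the counts, the common biological coefficient of variation of edgeR over 9164 genes was 34.1%, and without replicate 3 it was 18.0%.

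Replicate 3 lay above both others by more than 1.5-fold in 1401 (17.1%) of the expressed genes and below both in 1016 (12.4%). The same counts were 80 (0.974%) and 225 (2.74%) for replicate 1, and 100 (1.22%) and 232 (2.82%) for replicate 2. The mean that chose these genes includes replicate 3, so some passed through that library alone. Of the 8052 genes with at least 1 FPKM in the mean of replicates 1 and 2, 1221 (15.2%) were high in replicate 3 and 1043 (13%) low. Between 1 and 10 FPKM in that mean, 22.7% were high and 8.19% low, while at 1000 FPKM or more 3.25% were high and 32.5% low.

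Counts by function are given for the genes chosen by replicates 1 and 2 alone, of which 15.2% were high and 13% low. Of 84 cytoplasmic ribosomal proteins, 36 were low by more than 1.5-fold and none high, and replicate 3 was the lowest library for 79. Low members were also frequent in the ATP synthase, with 10 of 13, in complexes III and IV, with 12 of 18, in complex I, with 21 of 33, and in the mitochondrial ribosome, with 27 of 71. None of these 4 lists had a high member. High members were 14 of 15 trachea and cuticle markers, 9 of 11 fat body markers, 6 of 9 gut markers, 9 of 16 haemocyte markers and 7 of 13 regulators of ecdysone synthesis. The ecdysone enzymes had 4 high and 2 low members, the salivary gland markers 5 and 7 of 12, and the genes of larval stage and ecdysone timing 11 and 2 of 17. None of 17 muscle markers was high or low. Markers of other tissues and several ecdysone genes thus differed in the same library, some up and some down, and the part of either in the other was not tested.

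**Figure D5:**
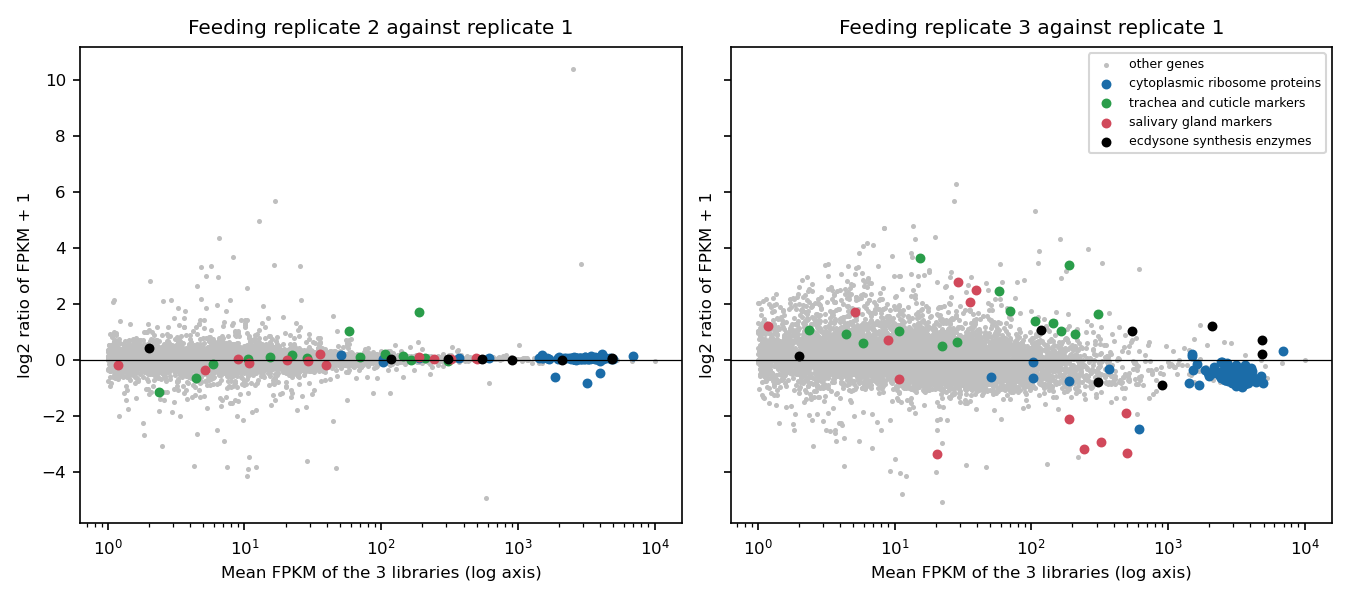
Log2 ratio of FPKM + 1 to replicate 1, for replicate 2 (left) and replicate 3 (right), against the mean FPKM on a log axis, 1 point per expressed gene, with 4 gene lists in colour. Replicate 2 lies near 0 apart from single genes, and in replicate 3 the ribosomal proteins lie below 0, trachea and cuticle markers above it and most glue genes of the salivary gland below it.

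Single genes showed the size of the difference. Spn43Aa, a protease inhibitor of the serpin family, had 6.61, 6.51 and 304 FPKM. ImpE2 and ImpE3, genes induced by ecdysone in imaginal discs, had 0.591, 0.327 and 80.8 FPKM and 20.1, 21.1 and 142 FPKM. The chitinase Cht5, an enzyme of moulting, had 2.42, 2.69 and 41.3 FPKM, and tok, a tolloid protease, had 25.8, 25.5 and 183 FPKM. In each of these genes the single high library was replicate 3, and replicates 1 and 2 differed little beside it. ImpL2, a secreted insulin-binding protein, had 312, 309 and 703 FPKM. The opposite order was seen in Eig71Ee, an ecdysone-induced gene of the salivary gland list, with 344, 353 and 36.9 FPKM, in RpS14b, with 836, 870 and 150 FPKM, and in Sgs1, with 30.1, 29.6 and 2.02 FPKM. RpS14b has a near-identical neighbour copy, so its own share of the reads is uncertain.

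Stable genes were picked by the smallest coefficient of variation over all 3 libraries. Among genes with at least 100 FPKM, CG1518 (Stt3A), a subunit of the oligosaccharyltransferase, had 101, 101 and 101 FPKM, and CG7033 (CCT2), a chaperonin subunit, had 142, 142 and 141 FPKM. The translocon protein TRAM had 179, 178 and 181 FPKM, and the profilin chic had 434, 436 and 440 FPKM. The agreement of these genes in replicate 3 follows from that choice. The troponin I gene wupA, at 242, 239 and 238 FPKM, was about as even as Start1.

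A small set of genes differed between replicates 1 and 2 as well. Of the genes with at least 10 FPKM, 57 lay more than 2-fold apart in these libraries, 51 of them annotated. The most abundant of the genes with extreme ratios was mt:CoIII, a mitochondrial oxidase subunit, with 4.63, 7633 and 7.74 FPKM from 147, 247795 and 238 counts, while mt:ATPase6, which lies beside it, had 1.11, 0.258 and 1.18 FPKM in all libraries. CG13560 had 1, 1908 and 3 counts, and Rsf1 had 1198, 0 and 966 counts. A like gap in replicate 3 was seen in mbm, with 1124, 1211 and 1 counts. Such values jump between a solid level and almost nothing in single libraries. Of the 57 genes, 43 had another gene within 1 kb. In 9 genes these neighbours held some counts but no more than the gene itself. After summing with them, 4 of the 9 came within 2-fold in CPM. All 57 genes were chosen for lying more than 2-fold apart, and adding steady neighbour counts draws any ratio closer. The sums therefore cannot show whether reads were shared between neighbours. Argk, the arginine kinase gene, had 9474, 680 and 683 counts, and Gclm had 92, 1486 and 975 counts. Their neighbours within 1 kb held almost no counts, so a sum could not bring the libraries closer. The exon of another gene was shared by 43.1% of the annotated genes in this set and by 44.2% of all annotated genes at that level.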

How the data were processed

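Total RNA of pooled ring glands was extracted with the miRNeasy Micro Kit and sequenced as paired ends after directional library preparation, per the labels' protocols. The whole-number counts per gene were deposited by the authors, as were the FPKM values, per the file headers. The submitters' processing notes name the build BDGP6 and the tools Bowtie, Cufflinks, HISAT2 and StringTie. No source used here gives their versions or roles, the counting tool or its strand setting, so counts of genes that share an exon with another (42.9% of annotated expressed genes, among them sad, sro, dib, Cyp6g2 and Start1) are uncertain. The feeding columns are the ones without a starvation term, and each replicate number is that of the header. Current symbols, coordinates and exon overlaps came from a reference annotation (BDGP6.54) in which 13605 identifiers were found, and symbols are printed as in the table.

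Means and SDs used FPKM as deposited. The length implied by counts and FPKM differed 3.28-fold between libraries for Akh and 1.49-fold for the most abundant new gene. For such genes FPKM and counts give different distances between libraries. High or low in replicate 3 means more than 1.5-fold beyond both other libraries. Correlations used a pseudocount of 1. Sampling noise was checked by chi-square on genes with a summed count of at least 100. Dispersions came from edgeR 4.0.16 in R 4.3.3 with TMM factors and filterByExpr, tested on simulated data; tables were made with Python 3.11.15. Intervals of counting error were not used, since the spread between pools was larger. Whether pools shared rearing, dissection or library batches is not stated.

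The members and the 49 gene lists and families were chosen with earlier results of these data known, and 13 list names were not found. Genes were named by rule: the 30 highest means, the 3 highest members of each list with all ecdysone, corpora cardiaca and corpora allata genes, the 15 largest library ratios above 10 FPKM, the 10 smallest coefficients of variation above 100 FPKM and the 5 highest genes with a bare number. Some are left out for length or are not reported here, and others (receptors, factors, regulators and the examples for replicate 3) were chosen after their values were seen. The Pfam groups, the counts beyond 1.5-fold, the choice of genes by replicates 1 and 2, the chi-square comparison and the sums with neighbours were also chosen after seeing the data, and the P450 name pattern was narrowed then to leave out cyclophilins. Alternatives were the median, rescaled FPKM, CPM, other cutoffs and pseudocounts, leaving out mitochondrial and new genes, RLE factors and leaving out each library.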

Additional observations from a re-analysis of the deposited data

How the results depend on the processing

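With shares taken from counts, without length correction, the top 100 genes held 35.4% and 15 genes of the top 30 kept their place. The share of counts was 21.2% for ribosomal proteins, 4.13% for the mitochondrial genome, 2.99% for ecdysone enzymes, 0.843% for ATP synthase, 0.675% for juvenile hormone synthesis and 0.861% for muscle markers. Without mitochondrial and new genes the top 10 held 8.30% and juvenile hormone synthesis 0.529%. Genes more than 2-fold apart numbered 2217, 3655 and 3737 (replicates 1 and 2, 1 and 3, 2 and 3) without a filter and 57, 520 and 554 from 10 FPKM, and 692, 2938 and 3057 were more than 1.5-fold apart. Without a filter the Pearson correlation was 0.972 for replicates 1 and 3 and 0.970 for 2 and 3. All 3 libraries shared 11 genes of the top 20 and 838 of the top 1000. Leaving out each library in turn gave a coefficient of variation of 18.0% to 38.6%, with the lowest without replicate 3. The other 80 summary values stayed within 1.5 times for counts or within 1 SD of the libraries otherwise, a limit that leaving out 1 of 3 libraries can hardly pass. Judged by 1.5-fold instead, the corpora cardiaca share fell from 0.506% to 0.216% without replicate 2, and the salivary share was 0.187% by counts in place of 0.290%. Of 220 values of 55 named genes, 4 moved by more: the mean of Akh, 2883 FPKM, was 822 FPKM without replicate 2 and 989 FPKM as a median, and that of svr, 16.0 FPKM, was 7.84 FPKM without replicate 3 and 8.41 FPKM as a median.

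In CPM with TMM factors, 1257 genes were high and 1222 low in replicate 3, of which 1187 and 986 were so in FPKM too, and low ribosomal proteins numbered 50 in place of 36. No paired analysis was possible because the description covers 1 group, with no contrast between groups. With 3 pools, SDs are rough. Genes listed at 0 may be failed estimates, since genes such as mt:CoIII and Rsf1 show that a level near 0 can belong to 1 library only.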

Other observations

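Gene families outside hormone synthesis are given beside the 57.0% of all 14409 genes that were expressed. Of 34 tetraspanins, small proteins that span the membrane, 23 were expressed, led by Tsp42El with 157, 155 and 163 FPKM and Tsp42Ee with 130, 135 and 279 FPKM. Of 34 subunits of the vacuolar proton pump 20 were expressed, led by Vha13 with 491, 470 and 271 FPKM. Proteasome subunits were expressed in 34 of 48 cases at a median of 158 FPKM, with Prosalpha2 at 443, 454 and 335 FPKM. Among protein kinases, 184 of 225 were expressed, and the cGMP-dependent kinase Pkg21D was highest with 137, 133 and 81.5 FPKM. Outside the hormone pathways the most expressed P450 was Cyp9c1, at 108, 109 and 86.9 FPKM.

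Immune and chemosensory families were low. Of 28 antimicrobial and immune effector genes 7 were expressed and none reached 10 FPKM. Of 50 odorant and pheromone binding proteins 9 were expressed, led by Obp99b, also known from fat body, with 48.3, 49.4 and 112 FPKM. Lipid storage and synthesis genes were moderate, with the desaturase Desat1 at 303, 306 and 355 FPKM. New genes of the authors' assembly held large differences between libraries, and the most abundant of them had 165, 91.8 and 1582 FPKM.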
